A study of Rattus norvegicus with 18 samples.

Results

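Macrophages of the joint lining take up iron and heme from worn red cells and damaged tissue, and either store the iron or release it. Heme oxygenase opens the heme ring and frees the iron, ferritin stores it, and ferroportin carries it out of the cell. When iron is short, iron regulatory proteins stabilise the transcript of the transferrin receptor and block the translation of ferritin, so ferritin is controlled in large part at a level that transcript counts do not show.

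The 10 genes described here encode proteins of heme breakdown (Hmox1, Blvrb), heme transport (Slc48a1), iron storage and its turnover (Fth1, Ftl1, Ncoa4), iron import (Tfrc), endosomal iron transport (Slc11a1, Slc11a2) and iron export (Slc40a1). They were chosen by symbol from the tables of both time points, and 9 of the 10 had an entry among the 30643 genes of each table. Fth1, the heavy chain of ferritin, was not analysed here. At each time point 8 of the 9 passed the filter on low values, a mean of at least 10 normalized reads, and only Slc40a1 was under it.

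The libraries came from male wild-type Sprague Dawley rats that were 12 weeks old at surgery. OA was induced by cutting the anterior cruciate ligament and the medial meniscotibial ligament, which destabilizes the medial meniscus, and in sham rats the joint was opened only. Cells of the synovium that bear CD11b/c, an integrin of myeloid cells, were taken with magnetic beads, and each library is 1 pool of 4 rats at 4-weeks or of 3 rats at 12-weeks after surgery. The earlier time point had 5 libraries of OA and 5 of sham, and the later one 4 of each. These numbers follow the sample labels, and the study's methods state more replicates at 12-weeks than the labels give.

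Recovered reads ranged from 4662344 to 17235069 per library at 4-weeks and from 10976114 to 18080503 at 12-weeks, and sham replicate 3 of 4-weeks had the fewest. Macrophage markers were abundant in every library, with the summed level of 12 markers from 136078 to 212336 normalized reads. The bead-selected pools also held other cells. The 8 fibroblast markers with an entry summed to between 47195 and 111806 normalized reads at 4-weeks. In such pools, fewer cells of a type and less RNA per cell cannot be told apart. The test was limma on log2(normalized reads + 1), run separately at 4-weeks and 12-weeks, and on that scale the change of low genes is understated. A gene was called at an adjusted p under 0.05 together with a minimum log2 fold change of 0.5, up or down. In limma 0 of 14861 genes were called at 4-weeks (0%) and 0 of 14666 at 12-weeks (0%), and edgeR also called 0 at both. Without adjustment, 1177 genes (7.92%) and 1814 genes (12.4%) had a p under 0.05 in limma. DESeq2 on the recovered reads called 27 genes at 4-weeks and 98 at 12-weeks, none of them among the 10 genes. On the adjusted p alone, DESeq2 passed 0.247% of all genes at 4-weeks and none of the set, and 0.964% at 12-weeks and 1 of the set, Hmox1.

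None of the 8 tested genes was called at either time point. At 4-weeks, 2 of the 8 had an unadjusted p under 0.05, beside 7.92% of all genes tested. Both, Ncoa4 and Slc48a1, had a higher level in OA, beside 4.1% of all genes tested, and 0 of 8 had one with a lower level, beside 3.82%. At 12-weeks, 1 of the 8 had an unadjusted p under 0.05, beside 12.4% of all genes. This was Hmox1, with a lower level in OA, beside 6.62%, and 0 of 8 had one with a higher level, beside 5.75%. OA was higher on average for 7 of 8 genes at 4-weeks, where it was higher for 57.1% of all genes, and for 5 of 8 at 12-weeks, where it was higher for 47.5%. The median log2 fold change of the 8 genes was 0.11 at 4-weeks, beside 0.028 over all genes, and 0.052 at 12-weeks, beside -0.011. The sign differed between the time points for Hmox1, at 0.37 and then -0.34, and for Tfrc, at 0.033 and then -0.23, though for Tfrc the 4-week value was below 0 in 5 of 19 alternatives.

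**Figure D1:**
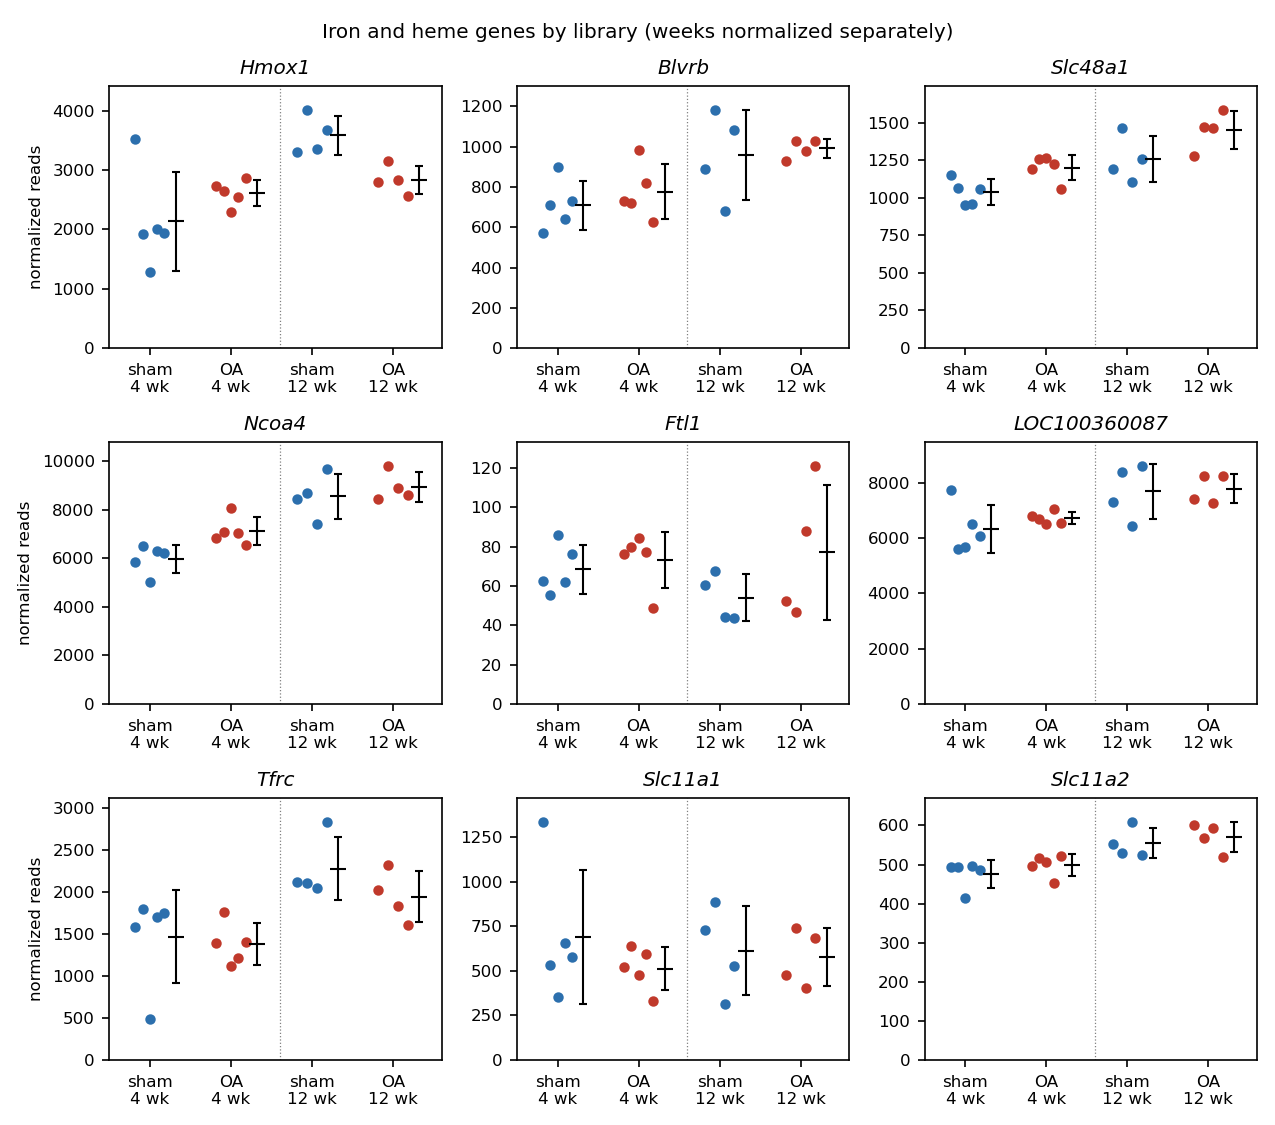
Normalized reads (y axis, from 0) of 8 iron and heme genes and of LOC100360087 in sham (blue) and OA (red) libraries at 4 and 12 weeks; each point is a library and the black bar is the mean ± SD. The Hmox1 points of OA lie below those of sham at 12 weeks, 2561 to 3149 against 3299 to 4019, and the Ncoa4 points of OA lie above those of sham at 4 weeks, 6531 to 8067 against 5027 to 6506.

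Hmox1 (ENSRNOG00000014117) encodes heme oxygenase 1, the inducible enzyme that degrades heme. At 4-weeks the OA libraries held 2725, 2644, 2299, 2549.6 and 2874 normalized reads of Hmox1. In sham, the values were 3531, 1920.4, 1279, 2003 and 1942. OA libraries lay close together, while sham held both the highest and the lowest library of the time point, so the groups overlapped. The means were 2618 ± 214 (SD, n = 5) in OA against 2135 ± 834 (SD, n = 5) in sham, a coefficient of variation of 8.19% in OA and 39.1% in sham. The difference was 0.37 (SE 0.20) on the log2 scale, with an unadjusted p of 0.0917 and an adjusted p of 0.658 in limma.

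The 4-week difference in Hmox1 depended on its extreme sham libraries. Without sham replicate 1, which held the 3531 reads, the log2 fold change was 0.57 (SE 0.13) with an unadjusted p of 0.0011 and an adjusted p of 0.346 in limma. Without sham replicate 3, which held the 1279, it was 0.20 (SE 0.16) with an adjusted p of 0.666 in limma. Replicate 1 also had the most Slc11a1 of the sham libraries, and the neutrophil markers summed highest there, at 4701 normalized reads beside 1473 in the lowest sham library. The highest sum of the time point was 14154, in OA replicate 3. Their part in the result was not tested.

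At 12-weeks Hmox1 was higher in sham. The OA libraries held 2796, 3149, 2829 and 2561 normalized reads. Those of sham were 3299, 4019, 3363 and 3682. All 4 OA libraries were below all 4 sham libraries, as was the case for 3.44% of all genes tested. The means were 2834 ± 241 (SD, n = 4) in OA against 3591 ± 331 (SD, n = 4) in sham, a ratio of 0.790 by the fitted fold change. On the log2 scale the difference was -0.34 (SE 0.085), with an unadjusted p of 0.0024 and an adjusted p of 0.278 in limma, and its p ranked 125 among all genes tested. The exact permutation p was 0.0286 (two-sided, as are the other permutation tests), the lowest value possible with groups of 4. DESeq2 gave an adjusted p of 0.0424, but the fold change was under the minimum of 0.5, and edgeR gave an adjusted p of 0.273. The unadjusted p stayed under 0.05 in 17 of 17 alternative fits, and leaving out 1 library moved the log2 fold change only between -0.39 and -0.29.

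Markers of other cells were also compared between these 12-week groups, and none was called in limma. Beside them, 5.75% of all genes tested had an unadjusted p under 0.05 in limma with a higher level in OA and 6.62% with a lower level. Of the 8 fibroblast markers tested, 6 had an unadjusted p under 0.05 in limma with a higher level in OA and 1 with a lower level. They summed to 85104 to 110341 normalized reads in OA and 57707 to 88763 in sham. Of the 8 skeletal muscle markers, 5 had such a p with a higher level in OA, with sums of 1159 to 2044 in OA and 853 to 1046 in sham. Red cell RNA, from a cell rich in heme, summed over 10 erythroid markers to 1747 to 7513 in OA and 2386 to 5002 in sham, and 0 of 8 erythroid markers tested had an unadjusted p under 0.05 in limma. The macrophage markers summed to 176004 to 212336 in OA and 146305 to 203974 in sham. Of 7 resident macrophage markers tested, 2 had an unadjusted p under 0.05 in limma with a higher level in OA, with sums of 79794 to 93956 in OA and 64280 to 93990 in sham. On average OA was higher in 7 of 8 fibroblast, 8 of 8 skeletal muscle and 8 of 8 erythroid markers. It was also higher in 10 of 12 macrophage and 5 of 7 resident macrophage markers, beside 47.5% of all genes. Endothelial markers were lower in OA on average in 5 of 5 genes, 1 of them with an unadjusted p under 0.05 in limma. They summed to 24144 to 31066 in OA and 27006 to 42168 in sham. Neutrophil markers were lower in OA on average in 6 of 8 tested, 0 of them with such a p, and summed to 1127 to 3805 in OA and 1337 to 5148 in sham. The part of these cells in the Hmox1 result was not tested.

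The contrast between time points was fitted on log2 CPM of the recovered reads over all 18 libraries. For Hmox1 the OA effect at 12-weeks less that at 4-weeks was -0.67 (SE 0.24), with an unadjusted p of 0.0108 and an adjusted p of 0.962 in limma. Of all 14284 genes in that fit 0 were called (0%), 443 had an unadjusted p under 0.05 (3.1%), and 0.805% had one with a lower OA effect at 12-weeks. The unadjusted p for Hmox1 was under 0.05 in 23 of 23 alternatives, edgeR (0.0220) and DESeq2 (0.0154) included. The size depended on sham replicate 1 of 4-weeks, without which it was -0.87 (adjusted p of 0.217 in limma), and on sham replicate 3 of 4-weeks, without which it was -0.51 (adjusted p of 1.00 in limma). None of the other 7 tested genes had an unadjusted p under 0.05 for this difference in any of the alternatives, and their differences ran from -0.22 for Tfrc to 0.36 for Ftl1.

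On the CPM scale, which places both time points on 1 scale, sham held 177 ± 72.8 CPM of Hmox1 (SD, n = 5) at 4-weeks and 269 ± 26.1 (SD, n = 4) at 12-weeks. OA held 223 ± 17.4 (SD, n = 5) at 4-weeks and 212 ± 18.5 (SD, n = 4) at 12-weeks. From low to high the order was 4-week sham, 12-week OA, 4-week OA and 12-week sham. The lower 3 overlapped in range, and the 12-week sham libraries, from 247 to 303 CPM, overlapped with 4-week sham only. Time point, the number of rats in a pool and any batch cannot be told apart, so levels were not tested between time points. For the other genes, the difference between time points is likewise that of the OA effect, not of the level.

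**Figure D2:**
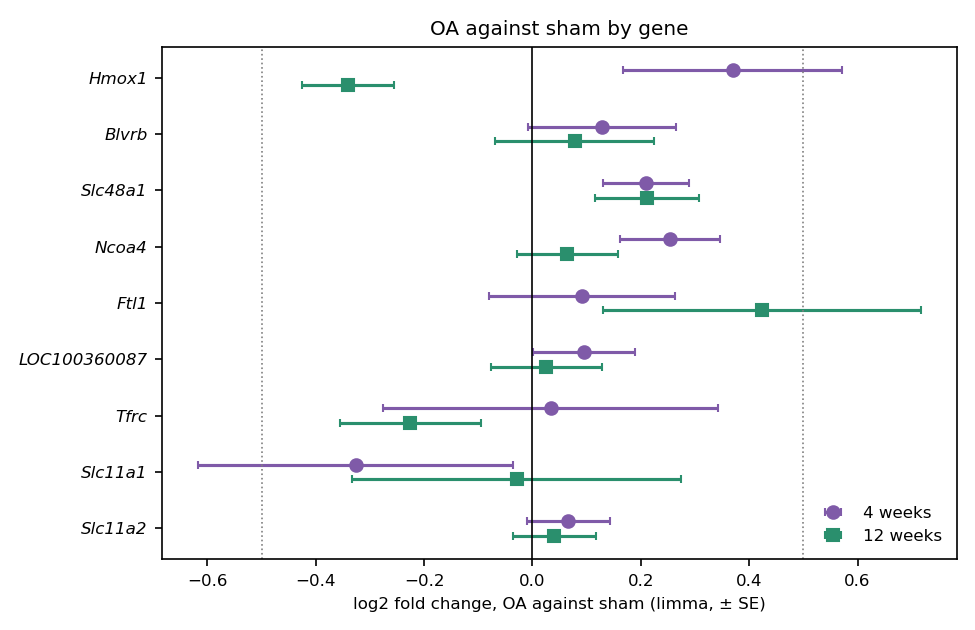
Log2 fold change of OA against sham from limma (x axis, points with bars of ± 1 SE) for each gene at 4 weeks (purple circles) and 12 weeks (green squares); dotted lines mark the minimum of 0.5 in either direction. Hmox1 lies at 0.37 and -0.34, and no gene reaches the minimum.

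Blvrb (ENSRNOG00000024410) encodes biliverdin reductase B, a reductase of flavins and of products of heme breakdown. It had 777 ± 136 normalized reads in OA (SD, n = 5) and 710.5 ± 122 in sham (SD, n = 5) at 4-weeks, with ranges of 625 to 985 and 574 to 898. At 12-weeks the OA libraries lay between 931 and 1030.5, inside the sham range of 680.5 to 1183. The log2 fold changes were 0.13 (SE 0.14, adjusted p 0.804 in limma) and 0.078 (SE 0.15, adjusted p 0.840 in limma), and the later one turned to -0.077 without sham replicate 3 of 12-weeks.

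The 250 bases before the Blvrb start (GRCr8, chr1:91866008-91866257, plus strand, from RefSeq) are shown because Blvrb is the only gene of heme breakdown here with such a window, with the GC box GGGCGG or its reverse complement in capitals.
Blvrb: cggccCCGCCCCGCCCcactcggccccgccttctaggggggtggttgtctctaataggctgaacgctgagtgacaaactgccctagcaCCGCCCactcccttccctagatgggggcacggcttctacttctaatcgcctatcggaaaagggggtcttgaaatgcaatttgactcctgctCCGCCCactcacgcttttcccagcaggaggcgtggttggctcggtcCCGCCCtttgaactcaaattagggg
The window holds 5 GC boxes, of which the first 2 share a base, and 30.5% of all 33469 such windows hold at least 1. It holds no copy of TGACNNNGC, the core of the antioxidant response element bound by the transcription factor NRF2, on either strand.

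Slc48a1 (ENSRNOG00000053196) encodes HRG1, which moves heme out of the phagolysosome. At 4-weeks the OA libraries held 1191, 1261, 1266, 1223 and 1063 normalized reads. The sham libraries held 1153, 1069, 954, 956 and 1061. In 4 of the 5 OA libraries the level was above every sham library, and OA replicate 5 fell within the sham range. The means were 1201 ± 82.9 (SD, n = 5) and 1039 ± 84.4 (SD, n = 5). The log2 fold change was 0.21 (SE 0.079), with an unadjusted p of 0.0209 and an adjusted p of 0.579 in limma, and the exact permutation p was 0.0238. In 16 of 19 alternatives the unadjusted p was under 0.05.

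At 12-weeks Slc48a1 had a log2 fold change of the same size, 0.21 (SE 0.096), with an unadjusted p of 0.0516 and an adjusted p of 0.405 in limma. The OA libraries held 1280.2, 1472, 1468 and 1587 normalized reads. In the sham libraries it was 1194, 1466, 1108 and 1261. Here 3 OA libraries were above every sham library, while sham replicate 2 was close behind them. The exact permutation p was 0.0571, and the unadjusted p passed 0.05 in 6 of 17 alternatives. The difference between time points was 0.037 (SE 0.12, adjusted p 0.981 in limma). When each library was left out, its log2 fold change ran from 0.18 to 0.25 at 4-weeks and from 0.15 to 0.29 at 12-weeks.

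Ncoa4 (ENSRNOG00000019768) encodes the receptor that delivers ferritin to the lysosome, where its iron is freed. At 4-weeks the OA libraries held 6840.1, 7061, 8067, 7054 and 6531 normalized reads. Sham held 5832, 6506, 5027, 6278 and 6227. All 5 OA libraries were above all 5 sham libraries, as for 1.18% of all genes tested, although the lowest OA and the highest sham library lay close together. The means were 7111 ± 577 (SD, n = 5) in OA against 5974 ± 582 (SD, n = 5) in sham, a ratio of 1.19 by the fitted fold change. For Ncoa4 the log2 difference was 0.25 (SE 0.092), with an unadjusted p of 0.0172 and an adjusted p of 0.570 in limma. The exact permutation p was 0.00794, the lowest value possible with groups of 5. The log2 fold change ran from 0.19 to 0.29 when each library was left out, and the lowest of these values was that without sham replicate 3. Fibroblast markers summed to 71258 to 111178 normalized reads in OA and 47195 to 111806 in sham at 4-weeks. Among these 8 markers 1 had an unadjusted p under 0.05 in limma, with a higher level in OA, beside 4.1% of all genes. Of 7 resident macrophage markers, 2 had such a p with a higher level in OA (4.1% of all genes), Vsig4 and Lyve1, and 1 with a lower level (3.82%), Cd209f. Their log2 fold changes were 0.79, 0.43 and -1.19. These 7 markers summed to 52116 to 65043 in OA and 36349 to 55487 in sham, and the lowest sum was in sham replicate 3, which also had the lowest Ncoa4. On average OA was higher in 7 of 8 fibroblast, 6 of 7 resident macrophage and 10 of 12 macrophage markers at 4-weeks, beside 57.1% of all genes. It was higher in 5 of 8 neutrophil, 3 of 7 skeletal muscle, 1 of 5 endothelial and 0 of 7 erythroid markers. The part of these cells in the Ncoa4 result was not tested.

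At 12-weeks the Ncoa4 groups overlapped. The OA libraries held 8425, 9800.1, 8872 and 8579.6 normalized reads. The sham libraries held 8426, 8692, 7419 and 9679.6. The means were 8919 ± 616 (SD, n = 4) and 8554 ± 929 (SD, n = 4), with a log2 fold change of 0.064 (SE 0.093, adjusted p 0.790 in limma) that was -0.0020 without sham replicate 3. The difference between time points was -0.15 (SE 0.12), with an adjusted p of 0.962 in limma, so the 4-week and 12-week effects were not shown to differ. On the CPM scale Ncoa4 ran from 493 ± 62.1 in 4-week sham (SD, n = 5) through 606 ± 51.4 in 4-week OA (SD, n = 5) and 640.1 ± 73.1 in 12-week sham (SD, n = 4) to 667 ± 47.2 in 12-week OA (SD, n = 4). Its neighbours in that order overlapped, apart from the sham and OA libraries of 4-weeks.

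The 250 bases before the Ncoa4 start (GRCr8, chr16:7401541-7401790, plus strand, from RefSeq) are shown because Ncoa4 was the gene whose groups did not overlap at 4-weeks, with TGACNNNGC and GGGCGG in capitals.
Ncoa4: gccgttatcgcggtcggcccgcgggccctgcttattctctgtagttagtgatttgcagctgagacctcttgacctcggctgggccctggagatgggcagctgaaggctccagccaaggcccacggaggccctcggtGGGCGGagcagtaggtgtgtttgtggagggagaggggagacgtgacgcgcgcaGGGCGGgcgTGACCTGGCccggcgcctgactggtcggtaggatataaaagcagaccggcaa
The window holds 2 GC boxes and 1 match to TGACNNNGC, TGACCTGGC, from 52 to 44 bases before the start. A match to TGACNNNGC on either strand is present in 10.1% of all windows, and of the 5 genes of the set with a window Ncoa4 was the only one with it. A match is a run of letters, not a measured binding site.

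Ftl1 (ENSRNOG00000031506), the light chain of ferritin, had few reads. At 4-weeks the level was 73.4 ± 14.1 normalized reads in OA (SD, n = 5) and 68.5 ± 12.4 in sham (SD, n = 5), with a log2 fold change of 0.091 (SE 0.17, adjusted p 0.888 in limma). At 12-weeks the OA libraries held 52.4, 47.0, 87.9 and 121 normalized reads. In sham, the values were 60.5, 67.9, 44.5 and 43.7. OA replicates 3 and 4 were above all sham libraries and replicates 1 and 2 were within their range. For Ftl1 the log2 difference was 0.42 (SE 0.29), with an adjusted p of 0.556 in limma. It ran from 0.17 without OA replicate 4, which held the 121 reads, to 0.62 without OA replicate 2.

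These counts do not stand for all ferritin light chain RNA. The RefSeq annotation lists 22 rat genes whose symbol starts with Ftl1, 15 of them pseudogenes, so reads of near-identical copies may have been split or left uncounted, and every ferritin value is uncertain. LOC100360087 (ENSRNOG00000020843), a gene to which RefSeq gives the synonym Ftl1 and which was looked up after the Ftl1 values were seen, held far more reads. At 4-weeks it had 6716 ± 213 normalized reads in OA (SD, n = 5) and 6326 ± 864 in sham (SD, n = 5), a log2 fold change of 0.096 (SE 0.094, adjusted p 0.789 in limma). At 12-weeks it had 7788 ± 535 in OA (SD, n = 4) and 7688 ± 1004 in sham (SD, n = 4), a log2 fold change of 0.026 (SE 0.10, adjusted p 0.926 in limma). The groups overlapped at both time points. The only other entries whose symbol starts with Fth or Ftl, Fthl17c and Fthl17e, held 3 reads in all over the 18 libraries.

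Tfrc (ENSRNOG00000001766) encodes the transferrin receptor, through which cells take in transferrin-bound iron. At 4-weeks the OA libraries held 1399, 1759.8, 1118, 1220.4 and 1409.9 normalized reads. Those of sham were 1588, 1798, 492, 1708 and 1757. Sham replicate 3 was far below the rest, and the other 4 sham libraries were all above 4 of the 5 OA libraries. With all libraries the log2 difference was 0.033 (SE 0.31, adjusted p 0.983 in limma). Without sham replicate 3 it was -0.33 (SE 0.11), with an unadjusted p of 0.0122 and an adjusted p of 0.376 in limma. With all libraries it was also below 0 in edgeR (-0.11) and DESeq2 (-0.090), so the direction at 4-weeks was not settled.

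At 12-weeks the OA libraries held 2019, 2324, 1838 and 1607 normalized reads of Tfrc. The sham libraries held 2123, 2105, 2044 and 2837. OA replicate 2 was above 3 of the 4 sham libraries, and the other 3 OA libraries were below all of them. The means were 1947 ± 303 (SD, n = 4) in OA against 2277 ± 375 (SD, n = 4) in sham. For Tfrc the log2 difference was -0.23 (SE 0.13, adjusted p 0.489 in limma). It stayed below 0 when each library was left out, from -0.32 to -0.12. The difference between time points was -0.22 (SE 0.38, adjusted p 0.967 in limma).

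**Figure D3:**
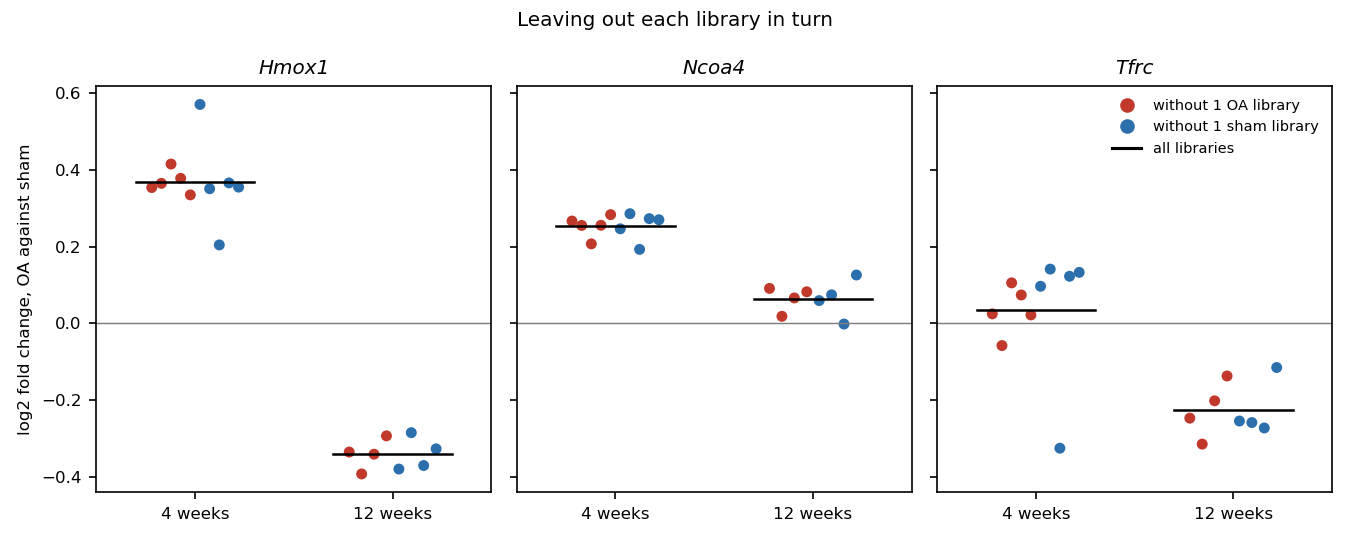
Log2 fold change of OA against sham in limma (y axis) for Hmox1, Ncoa4 and Tfrc at 4 and 12 weeks with each library left out in turn, red where an OA and blue where a sham library was left out; the black line is the value with all libraries. For Hmox1 at 4 weeks single sham libraries move the value to 0.57 or 0.20, for Tfrc at 4 weeks 1 sham library moves it from 0.033 to -0.33, and for Hmox1 at 12 weeks all values stay between -0.39 and -0.29.

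Slc11a1 (ENSRNOG00000014956) encodes NRAMP1, a metal transporter of the phagosome membrane in macrophages. At 4-weeks it held 520.0, 636, 477, 595 and 329 normalized reads in the OA libraries. In the sham libraries it held 1335, 535, 355, 655 and 575. Sham replicate 1 was far above all other libraries, and the groups overlapped. The log2 fold change was -0.33 (SE 0.29, adjusted p 0.766 in limma) with all libraries and -0.053 (SE 0.21, adjusted p 0.934 in limma) without sham replicate 1. At 12-weeks the means were 576 ± 162 in OA (SD, n = 4) and 613 ± 249 in sham (SD, n = 4). The log2 fold change was -0.029 (SE 0.30, adjusted p 0.972 in limma), and it ran from -0.32 to 0.18 when each library was left out.

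Slc11a2 (ENSRNOG00000019550) encodes DMT1, which moves iron out of endosomes after transferrin uptake. Its coefficient of variation was 5.57% to 7.45% within the groups. Its highest coefficient of variation was below the highest one of each other tested gene of the set. At 4-weeks the level was 498 ± 27.7 normalized reads in OA (SD, n = 5) and 476 ± 35.5 in sham (SD, n = 5), where sham replicate 3 held 413 and the other sham libraries 487 to 496. At 12-weeks it was 570.3 ± 37.7 in OA (SD, n = 4) and 554 ± 38.5 in sham (SD, n = 4). The log2 fold changes were 0.066 (SE 0.077, adjusted p 0.821 in limma) and 0.041 (SE 0.076, adjusted p 0.840 in limma).

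Slc40a1 (ENSRNOG00000049995) encodes ferroportin, the iron exporter of mammalian cells. Its entry was at or near 0 in every library. Over the 10 libraries of 4-weeks it held 2 reads in total, with 0 reads in 8 of them, and over the 8 libraries of 12-weeks it held 5, with 0 reads in 4. No library reached the floor of 3 reads, which equals 2.06 to 6.96 normalized reads at 4-weeks and 2.27 to 3.82 at 12-weeks and covers counting error only. No fold change is given, and a difference between OA and sham was not detectable at this depth. Whether reads of Slc40a1 lie outside the gene model used by the authors was not tested.

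The other genes of iron and heme handling were taken from 7 lists of 59 genes, of which 57 had an entry. At 4-weeks, 0 of 55 tested had an unadjusted p under 0.05 in limma with a higher level in OA and 1 with a lower level, 1.82% beside 3.82% of all genes. At 12-weeks, 1 of 54 had one with a higher level, 1.85% beside 5.75% of all genes, and 3 with a lower level, 5.56% beside 6.62%. The median log2 fold change of the lists was 0.052 at 4-weeks, beside 0.028 over all genes, and -0.014 at 12-weeks, beside -0.011. None was called in limma.

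The gene with the smallest p of the lists was Steap3, a reductase that turns ferric to ferrous iron in endosomes, next to the transferrin receptor. At 12-weeks it had 1528 ± 174 normalized reads in OA (SD, n = 4) and 1106 ± 136 in sham (SD, n = 4). All OA libraries were above all sham libraries, as for 2.85% of all genes. Its log2 difference was 0.47 (SE 0.10), and limma and DESeq2 gave adjusted p values of 0.265 and 0.0187. It was under the fold change minimum. At 4-weeks it was 0.14 (SE 0.10, adjusted p 0.717 in limma). Steap4, a metalloreductase of the same family, had 3239.9 ± 580.2 in OA (SD, n = 4) and 4288 ± 464 in sham (SD, n = 4) at 12-weeks. All OA libraries were below all sham libraries, as for 3.44% of all genes. The margin was small, with the highest OA library at 3785 and the lowest sham library at 3842. The log2 fold change of Steap4 was -0.42 (SE 0.13, adjusted p 0.315 in limma), and -0.22 (SE 0.11, adjusted p 0.648 in limma) at 4-weeks. Tfr2, a transferrin receptor best known from the liver, had 7.11 ± 4.51 normalized reads in OA (SD, n = 5) and 17.0 ± 15.4 in sham (SD, n = 5) at 4-weeks. The sham libraries spread widely, from 5.53 to 44.1 normalized reads. The log2 fold change of Tfr2 was -1.08 (SE 0.59, adjusted p 0.659 in limma), and it ran from -1.36 to -0.65 when each library was left out.

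Among genes of heme and hemoglobin uptake, Cd163, the receptor for hemoglobin bound to haptoglobin, had 9491 ± 1211 normalized reads in OA (SD, n = 5) and 8718 ± 2053 in sham (SD, n = 5) at 4-weeks. At 12-weeks it had 17922 ± 1901 (SD, n = 4) and 17690.3 ± 3571 (SD, n = 4). Its log2 fold changes were 0.15 (adjusted p 0.805 in limma) and 0.034 (adjusted p 0.929 in limma). Hp, which binds free hemoglobin, ranged from 38.2 to 488 normalized reads in OA at 4-weeks, and its log2 fold changes of 0.56 and -0.61 had adjusted p values of 0.830 and 0.596 in limma. The 4-week value was 0.034 without OA replicate 3 and 0.94 without OA replicate 4, and 1.22 in edgeR and no lower in DESeq2, while the 12-week value ran from -0.89 to -0.33 when each library was left out. Hpx, which binds free heme, had 10.2 ± 4.46 in OA (SD, n = 5) and 17.4 ± 4.71 in sham (SD, n = 5) at 4-weeks, a log2 fold change of -0.78 with an unadjusted p of 0.0401 and an adjusted p of 0.614 in limma. At 12-weeks it was -0.073. Flvcr1, a heme exporter, had 0.22 at 4-weeks (adjusted p 0.659 in limma). Abcg2, a transporter of porphyrins, had 179 ± 43.0 in OA (SD, n = 4) and 268 ± 89.9 in sham (SD, n = 4) at 12-weeks, a log2 fold change of -0.55 with an unadjusted p of 0.0296 and an adjusted p of 0.370 in limma.

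Of the 3 other heme breakdown genes, 0 had an unadjusted p under 0.05 in limma, beside 7.92% of all genes at 4-weeks and 12.4% at 12-weeks. Hmox2, the constitutive heme oxygenase, had log2 fold changes of -0.00077 and 0.036. Blvra, biliverdin reductase A, had 0.045 and 0.062, and Por, the electron donor of heme oxygenase, 0.12 and 0.013. In heme synthesis all 8 genes had log2 fold changes between -0.22 and 0.12 over both time points, with Urod at 0.11 and 0.12 and Uros at 0.11 and -0.22. In export and storage, Heph, a ferroxidase that acts with ferroportin, had 4145 ± 490 normalized reads in OA (SD, n = 5) and 3471 ± 605 in sham (SD, n = 5) at 4-weeks, with a log2 fold change of 0.27 (SE 0.13, adjusted p 0.643 in limma) and 0.011 at 12-weeks. The 4-week value of Heph ran from 0.15 to 0.33 when each library was left out. Prom2, at 15.8 or fewer normalized reads per group, had -1.13 (SE 0.58, adjusted p 0.648 in limma) at 4-weeks. Its sham libraries ran from 4.60 to 44.1 normalized reads, and its log2 fold change from -1.41 to -0.95 when each library was left out. The ferroxidase Cp had -0.047 and the iron chaperone Pcbp2 had -0.097 at 12-weeks, and Hamp, which encodes hepcidin, was too low to be tested.

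Of the 11 regulators of iron genes, 0 had an unadjusted p under 0.05 in limma at 4-weeks, beside 7.92% of all genes, and 1 at 12-weeks, Ireb2, beside 12.4%. Nfe2l2, which encodes NRF2, an activator of Hmox1 and the ferritin genes, had 3096 ± 134 normalized reads in OA (SD, n = 5) and 3047 ± 398 in sham (SD, n = 5) at 4-weeks. At 12-weeks it had 4007 ± 263 (SD, n = 4) and 4107 ± 378 (SD, n = 4), with log2 fold changes of 0.032 and -0.034. Bach1, the heme-sensing repressor of Hmox1, had 0.11 and 0.052. Ireb2, an iron regulatory protein, had a log2 fold change of -0.17 (SE 0.068) at 12-weeks with an unadjusted p of 0.0302 and an adjusted p of 0.371 in limma, and 0.16 at 4-weeks. Hif1a had 0.16 at 4-weeks and Epas1 -0.26 at 12-weeks. Of the 9 other NRF2 target genes tested, 0 had an unadjusted p under 0.05 in limma at either time point, beside 7.92% and 12.4% of all genes. The smallest p values among them were those of Slc7a11 (-0.88) and Gclm (0.19) at 4-weeks and of Prdx1 (0.18) and Gclc (0.15) at 12-weeks. For Slc7a11 at 4-weeks the adjusted p was 0.635 in limma. Its sham libraries ran from 97.5 to 602 normalized reads, and its log2 fold change from -1.16 to -0.51 when each library was left out.

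**Figure D4:**
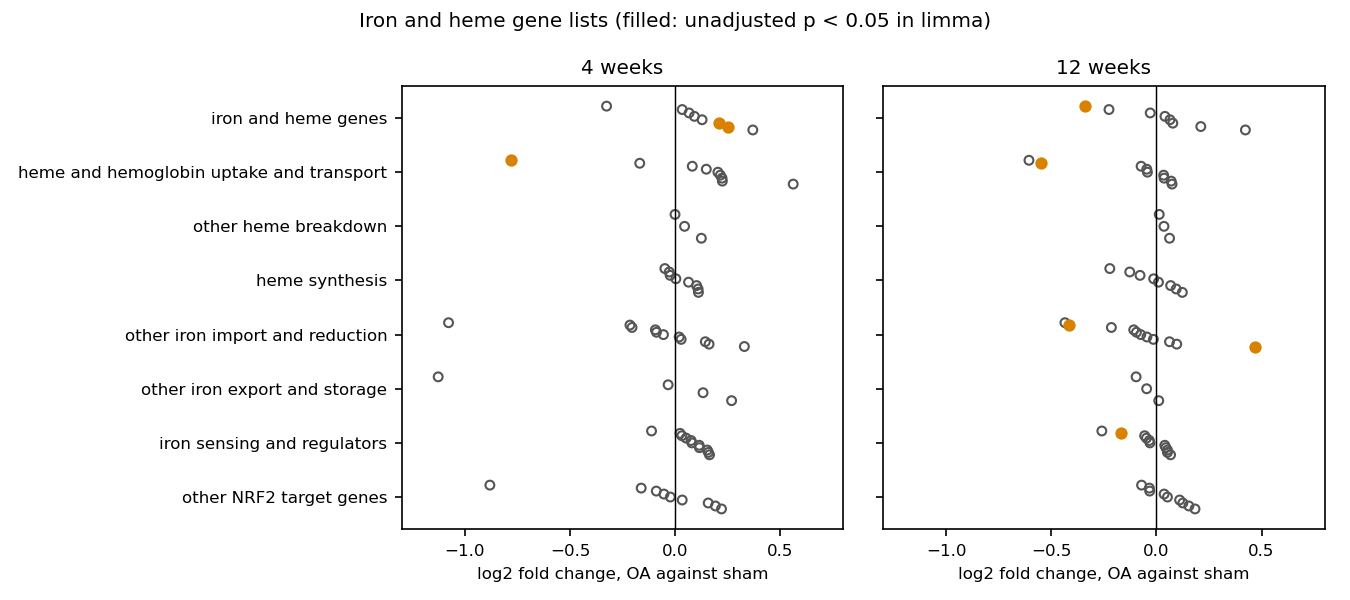
Log2 fold change of OA against sham in limma (x axis) of the 8 tested genes of the set (top) and of the genes of 7 further iron and heme lists at 4 weeks (left) and 12 weeks (right); each circle is a gene, filled where the unadjusted p is under 0.05. Of the set, 2 circles are filled at 4 weeks and 1 at 12 weeks, and of the further lists 1 of 55 and 4 of 54.

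Correlations between genes of the set varied widely. Over the 18 libraries, with the mean of each group removed, Pearson's r between log2 CPM values was 0.78 for Slc48a1 and Slc11a1, 0.69 for Hmox1 and Slc11a1, and 0.69 for Hmox1 and Tfrc. It was -0.37 for Hmox1 and Blvrb and -0.59 for Blvrb and Slc11a2. Leaving out sham replicate 3 of 4-weeks lowered r for Hmox1 and Tfrc to 0.34 and for Tfrc and Slc11a2 from 0.74 to 0.39, while Slc48a1 and Slc11a1 stayed at 0.74. It raised r for Blvrb and Ncoa4 from 0.38 to 0.75 and for Blvrb and Slc48a1 from 0.42 to 0.62. For Hmox1 and Ncoa4 r was 0.39 with that library and -0.010 without it. LOC100360087 had r of 0.85 with Slc11a1 and 0.75 with Hmox1. These values share depth, makeup and quality of the libraries and are descriptions only.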

How the data were processed

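RNA of CD11b/c-selected synovial cells was sequenced by the authors from ribosome-depleted stranded libraries. Per the labels and the methods, the authors used fastp 0.20.0, STAR 2.7.6a, Sambamba, featureCounts 2.0.0 and DESeq2 1.24.0 with the Rnor_6.0 genome. Which strand setting featureCounts had is not given in the sources used here. For each time point the authors deposited reads divided by DESeq2 size factors, a signal of at least 0. Their own log2 fold changes, standard errors, Wald statistics and p-values in the deposited tables were not used.

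In every library 100% of deposited values were whole multiples of 1 read within 0.01, so reads were recovered. The 32 pairs of replicate libraries differed by more than counting noise, with a chi-square per degree of freedom of 5.84 to 38.8, so each was counted as a sample. Nothing beyond the pools of rats names separate cultures or days, and p values measure the spread between pools. Libraries were grouped by the labels. OA and sham were compared in limma 3.58.1 (R 4.3.3) with a mean-variance trend on log2(normalized reads + 1), for genes with a mean of at least 10, with Benjamini-Hochberg adjustment over all of them. As alternatives, the recovered counts entered edgeR 4.0.16 and DESeq2 1.42.0. For the difference between time points a limma contrast was fitted on log2 CPM (TMM, prior count 2, mean CPM of at least 1). Exact permutation tests used Python 3.11.15 and scipy 1.17.1. The main limma fits, edgeR and DESeq2 were run on simulated data, and the other alternatives and the permutation tests were not.

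The members, lists and tests were chosen with earlier results of these data known. Named are all members, the 2 genes of each list with the smallest p at each time point, Cd163, Hp, Hpx, Hamp and Nfe2l2, and the 3 genes most like Hmox1 and Tfrc. Outside this rule, LOC100360087, Hmox2, Bach1, Blvra, Por and the second time point of list genes were added after values were seen. A ratio of Fth1 to Ftl1 was planned and not run, as Fth1 was not analysed here. Promoter windows and gene names came from RefSeq (GRCr8), whose build differs from that of the reads. Of the 10 members, 5 had a window. Further alternatives were pseudocounts of 0.5 and 5, every gene with a read, a mean of at least 50, a mean CPM of at least 5, TMM scaling, a replicate block, sample quality weights and leaving out each library. DESeq2 with no fold change minimum was added after the data were seen.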

Additional observations from a re-analysis of the deposited data

Results flagged for a closer look

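In 4 of 36 groups of libraries checked, 1 library lay far from the rest for a gene of the set, by Dixon's ratio of gap to range. Chance gives about 1 in 20 such groups. Tfrc was 492 normalized reads in sham replicate 3 of 4-weeks, where the other sham libraries held 1588 to 1798. Slc11a2 was 413 in the same library, where the others held 487 to 496. Tfrc was 2837 in sham replicate 4 of 12-weeks, above 2044 to 2123 in the other sham libraries. Ftl1 was 48.8 in OA replicate 5 of 4-weeks, below 76.3 to 84.5 in the other OA libraries. No explanation of these values was tested.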

How the results depend on the processing

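Counts of genes called depended on the tool. At 4-weeks, where limma called 0, DESeq2 called 27 and 42 with no fold change minimum, sample quality weights 1, and leaving out each library 0 to 1 (1 without sham replicate 3). At 12-weeks DESeq2 called 98 and 136 with no minimum, and leaving out each library gave 0 to 81, with 81 without sham replicate 3, where Hmox1 was not called (adjusted p 0.127 in limma). For the difference between time points every alternative called 0. Members with an unadjusted p under 0.05 numbered 1 to 3 at 4-weeks (3 without sham replicate 3, as Tfrc joined, and 3 without sham replicate 1, as Hmox1 joined) and 1 to 2 at 12-weeks when each library was left out, and 2 at 12-weeks with every gene with a read, TMM scaling or edgeR, as Slc48a1 joined. Libraries with the same number were pooled from different rats. Their deviations correlated at -0.13 to 0.080 at 4-weeks and -0.026 to 0.30 at 12-weeks. OA replicate 3 of 12-weeks, at 0.30, was most like the sham library of its own number. With so few libraries these values cannot exclude a shared day or batch, and the main fits did not pair them. With the replicate number as a block limma called 1 gene at 4-weeks and 0 at 12-weeks, with 2 members under 0.05 at each, where at 4-weeks Hmox1 (unadjusted p 0.0436 in limma) took the place of Ncoa4 (0.0502), and Hmox1 had an adjusted p of 0.111 in limma at 12-weeks. Values near 0 changed sign, as did the Tfrc difference between time points of -0.22. At 4-weeks these were Tfrc in edgeR (-0.11), DESeq2 (-0.090) and sample quality weights (-0.29), Nfe2l2 in edgeR (-0.00063) and Slc11a2 with weights (-0.00015). At 12-weeks they were Hpx in edgeR (0.012) and, with weights, Hpx (0.011), Cd163 (-0.024), Hmox2 (-0.00084), LOC100360087 (-0.010) and Nfe2l2 (0.027). For the difference between time points they were Slc11a2 in DESeq2 (-0.0036), Blvrb (0.023) and LOC100360087 (0.0029) at a mean CPM of at least 5, and Tfrc with weights (0.091). Leaving out each library gave ranges through 0 at 4-weeks for Tfrc (-0.33 to 0.14), Blvra (-0.056 to 0.15), Ireb2 (-0.0086 to 0.22) and Nfe2l2 (-0.027 to 0.099). It did so at 12-weeks for Slc11a1 (-0.32 to 0.18), Blvrb (-0.077 to 0.19), Ncoa4 (-0.0020 to 0.13), LOC100360087 (-0.056 to 0.084), Blvra (-0.020 to 0.16), Cd163 (-0.070 to 0.16), Cp (-0.12 to 0.015), Hmox2 (-0.024 to 0.065), Hpx (-0.25 to 0.085) and Nfe2l2 (-0.069 to 0.027). For the difference between time points it did so for Blvrb (-0.16 to 0.095), Slc48a1 (-0.016 to 0.11), Tfrc (-0.33 to 0.13), Slc11a2 (-0.023 to 0.061) and LOC100360087 (-0.11 to 0.022). The cause of these changes was not tested. The ratio of Fth1 to Ftl1 was not run. Pools of rats, few libraries, mixed cells, split ferritin reads and the near absence of Slc40a1 reads limit what the values show.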

Other observations

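Among 9860 genes with a mean CPM of at least 10, those most like Hmox1 over the 18 libraries, with the mean of each group removed, were Nfatc2ip (Pearson's r 0.92), Lhfpl2 (0.92) and the chemokine receptor gene Cxcr4 (0.92). Without sham replicate 3 of 4-weeks these were 0.86, 0.86 and 0.89. For Tfrc they were Zfp110 (0.98), Cxxc1 (0.98) and Inppl1 (0.97), and 0.92, 0.91 and 0.92 without that library. Slc40a1 was too low for such a comparison. The libraries share depth and makeup, and these values are descriptions with no test.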
